A study of Mus musculus with 20 samples.

Results

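Vascular endothelial growth factor (VEGF) ligands and receptors were followed in RNA-seq counts from mouse temporomandibular joint (TMJ) condyles. The 10 genes were chosen by name: the ligands Vegfa, Vegfb, Vegfc, Vegfd and Pgf, the receptor tyrosine kinases Kdr, Flt1 and Flt4, and the neuropilin co-receptors Nrp1 and Nrp2. They are 10 of 54532 genes in the count table, and all 10 were among the 15984 genes that passed a filter on low counts and were tested.

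VEGF ligands are secreted proteins that bind tyrosine kinase receptors on endothelial cells and drive the growth, survival and leakiness of blood and lymphatic vessels. VEGFA acts through KDR (VEGFR2), while FLT1 (VEGFR1) binds VEGFA, VEGFB and placental growth factor and can act as a decoy, and FLT4 (VEGFR3) is the receptor of VEGFC and VEGFD in lymphatic vessels. In the skeleton, VEGFA from hypertrophic chondrocytes and bone cells brings vessels and bone-resorbing osteoclasts to calcified cartilage, whereas healthy cartilage itself has no vessels.

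The samples were TMJ condylar heads with part of the bone beneath, from mice that all carried Acan-Cre and Loxl2 fl/fl (loxP-flanked Loxl2 with a tamoxifen-inducible Cre driven from the aggrecan gene). From 6 months of age, 8 mice received vehicle (control) and 12 received tamoxifen at 75 mg/kg (knockout), as 5 daily injections followed by monthly ones, and tissue was collected 4 months after the start. The Cre is meant to act in aggrecan-expressing cells, and the cells in which it acted were not tested here. With vehicle as the control, an effect of tamoxifen and one of the deletion cannot be told apart. The control group had 4 males and the knockout group 6 males, with females making up the rest, and the labels do not say which library came from which sex.

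Library totals ran from 11153820 to 27045668 counts. Mitochondrial genes took 15.2% to 23.1% of the counts in the control and 9.06% to 18.3% in the knockout-labelled libraries, of which 8 of 12 lay below every control library, and the part of this in the values below was not tested. Loxl2, the targeted gene, averaged 64.5 CPM (counts per 1000000, after scaling) ± 30.9 (SD, n = 8) in the control libraries and 101 CPM ± 26.9 (SD, n = 12) in the knockout libraries. The log2 difference between the groups was 0.64 (SE 0.28) at an edgeR adjusted p of 0.101, so it did not fall in the knockout-labelled libraries, and every direction below is given for libraries so labelled. Chondrocyte markers were present but uneven, with a summed level of 41.9 to 3144 CPM in the control and 457 to 4950 CPM in the knockout-labelled libraries, and the cartilage marker Matn1 was at 0 in 18 libraries. The samples also held bone and muscle: skeletal muscle markers summed to 48430 to 159100 CPM in the control and 34810 to 87130 CPM in the knockout-labelled libraries, and osteoclast markers to 185 to 1494 CPM and 670.5 to 8124 CPM. In bulk tissue, fewer cells of a type and less RNA per cell cannot be told apart.

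The promoters of 3 members are shown because 2 of these genes, Vegfa and Nrp2, passed the test in opposite directions, and Kdr is the main VEGFA receptor. Each sequence is the 200 bases before the first annotated start of the gene, from RefSeq on GRCm38.p6, written 5′ to 3′ on the gene's own strand. The windows are chr17:46032378-46032577 on the minus strand for Vegfa, chr5:75978459-75978658 on the minus strand for Kdr, and chr1:62703085-62703284 on the plus strand for Nrp2. Capitals mark the GC box core, read as GGGCGG or, on the other strand, CCGCCC.
Vegfa: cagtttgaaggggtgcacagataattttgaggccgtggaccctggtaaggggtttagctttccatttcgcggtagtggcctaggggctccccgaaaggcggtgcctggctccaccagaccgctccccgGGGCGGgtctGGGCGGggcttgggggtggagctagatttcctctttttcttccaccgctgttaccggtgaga
Kdr: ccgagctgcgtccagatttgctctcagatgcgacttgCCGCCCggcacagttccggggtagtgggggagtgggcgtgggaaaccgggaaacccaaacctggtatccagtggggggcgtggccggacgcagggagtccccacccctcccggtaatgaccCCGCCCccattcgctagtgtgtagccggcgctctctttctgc
Nrp2: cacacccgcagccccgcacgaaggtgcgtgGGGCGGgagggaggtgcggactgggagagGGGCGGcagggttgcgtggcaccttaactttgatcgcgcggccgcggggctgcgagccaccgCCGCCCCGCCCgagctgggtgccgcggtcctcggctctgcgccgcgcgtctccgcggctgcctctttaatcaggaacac
The Vegfa window held 2 forward GC boxes, the Kdr window 2 reverse ones, and the Nrp2 window 2 in each direction, of which the reverse ones share a base and appear as 1 run of capitals. GC content was 60.5% in Vegfa, 66% in Kdr and 73.5% in Nrp2. All 10 members matched a RefSeq entry and 6 gave a window free of transcribed bases. A GC box core was present in 5 of these 6 windows and in 31% of 32851 windows of the same length. Those windows were taken before the start of every RefSeq entry, not only the outermost start of a gene. They were not checked for transcribed bases, so the member windows and all windows were not built alike. The core of the hypoxia response element, ACGTG or CACGT, was present in 0 of the 6 and in 14% of all windows, which says only that these letters are absent from these 200 bases.

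The comparison of the 12 knockout-labelled libraries with the 8 control libraries asked which VEGF genes differed after the tamoxifen course. Vegfa fell to 0.719 of its control level and Nrp2 rose 2.56-fold, and these were the 2 members of 10 past an adjusted p of 0.05, with 1 lower and 1 higher. The remaining 8 members did not pass. In the whole table edgeR called 3673 of 15984 genes, or 23.0%, with 1918 (12.0%) higher and 1755 lower, so 2 of 10 members is near the share of all genes. DESeq2 also called 1 member higher and 1 lower, against 22.3% of the genes it tested. The median log2 fold change was −0.21 over the members and −0.02 over all genes tested. By role, 1 of 5 ligands was lower, 0 of 3 receptor kinases passed in edgeR or DESeq2 or had an unadjusted edgeR p under 0.05, and 1 of 2 neuropilins was higher.

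**Figure D1:**
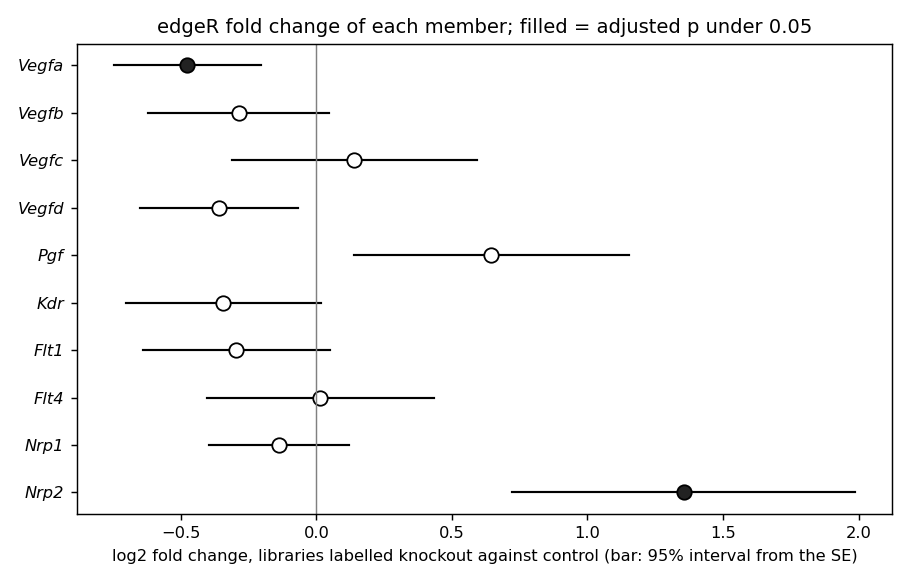
Log2 fold change of each VEGF gene (x axis, knockout-labelled libraries against control), with a dot for the edgeR estimate and a bar for its 95% interval. Filled dots mark an adjusted p under 0.05, which only Vegfa at −0.48 and Nrp2 at 1.36 have, and the bars of Vegfd and Pgf stay clear of 0 without passing after adjustment.

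In the plot of fold changes, Nrp2 stood apart from the other 9 genes, whose estimates lay between −0.48 and 0.65. The widest bars belonged to Nrp2 and to Pgf, the lowest ligand by count, and the narrowest to Nrp1 and Vegfa.

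Among the ligands, Vegfa (ENSMUSG00000023951, chromosome 17, 46016993 to 46032369, minus strand) encodes the main blood vessel growth factor. Its level was 334, 468 and 620 CPM (lowest, median and highest) in the control libraries and 254, 313 and 571 CPM in the knockout-labelled libraries. The groups overlapped, but 11 of 12 knockout-labelled libraries lay below the control median and 7 lay below every control library. The exception was replicate 5 of the knockout-labelled libraries, at 571 CPM, and the lowest control was replicate 2 at 334 CPM. The log2 fold change was −0.48 (SE 0.14, 95% interval −0.75 to −0.20, edgeR adjusted p = 0.0185, and 0.00764 by DESeq2). It passed without any single library, at log2 fold changes of −0.57 to −0.41, but not when libraries were scaled by their totals alone, at −0.34 (adjusted p = 0.0625). That scaling moved the median of all genes from −0.02 to 0.12 and the share of calls that were higher from 52.2% to 72%.

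Vegfb (ENSMUSG00000024962, chromosome 19, 6982473 to 6987651, minus strand) encodes a FLT1 ligand abundant in muscle and heart. It measured 130, 182 and 257 CPM in the control libraries and 90.0, 161 and 219 CPM in the knockout-labelled libraries, with most of both ranges shared. Its log2 fold change of −0.29 (SE 0.17, interval −0.62 to 0.05) did not pass, at an edgeR adjusted p of 0.23.

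Pgf (ENSMUSG00000004791, chromosome 12, 85166635 to 85177790, minus strand) encodes placental growth factor, a FLT1 ligand linked to repair and inflammation. It was a low gene, with 0.818, 2.73 and 5.93 CPM in the control libraries (14 to 87 counts) and 1.97, 4.83 and 5.79 CPM in the knockout-labelled libraries (35 to 164 counts). Of the knockout-labelled libraries, 11 of 12 were above the control median, although control replicate 5 was the highest library of all. The log2 fold change was 0.65 (SE 0.26, interval 0.14 to 1.15), with an edgeR adjusted p of 0.0742. Without control replicate 5 the change was 0.88 (edgeR adjusted p = 0.0127). Without replicate 5 of the knockout-labelled libraries it was 0.72 (adjusted p = 0.0355). In the other 18 fits that left out 1 library Pgf did not pass, and without control replicate 3, its lowest library, the change was 0.51 (adjusted p = 0.112).

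The lymphatic ligands gave no call. Vegfc (ENSMUSG00000031520, chromosome 8, 54077606 to 54187096, plus strand), the chief growth factor of lymphatic vessels, measured 1.55, 4.46 and 6.47 CPM in the control libraries and 2.44, 4.80 and 6.58 CPM in the knockout-labelled libraries. The groups covered nearly the same range, with a log2 fold change of 0.14 (SE 0.23, interval −0.31 to 0.59, edgeR adjusted p = 0.696). Vegfd (ENSMUSG00000031380, chromosome X, 164373378 to 164402650, plus strand), a second FLT4 ligand, measured 7.77, 10.1 and 16.6 CPM against 5.33, 8.06 and 11.2 CPM. For Vegfd, 10 of 12 knockout-labelled libraries were below the control median, and the highest library was control replicate 8. Its log2 fold change was −0.36 (SE 0.15, interval −0.65 to −0.07) with an edgeR adjusted p of 0.0844, and without replicate 12 of the knockout-labelled libraries it was −0.40 (adjusted p = 0.048), while without control replicate 8 it was −0.22 (adjusted p = 0.273).

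**Figure D2:**
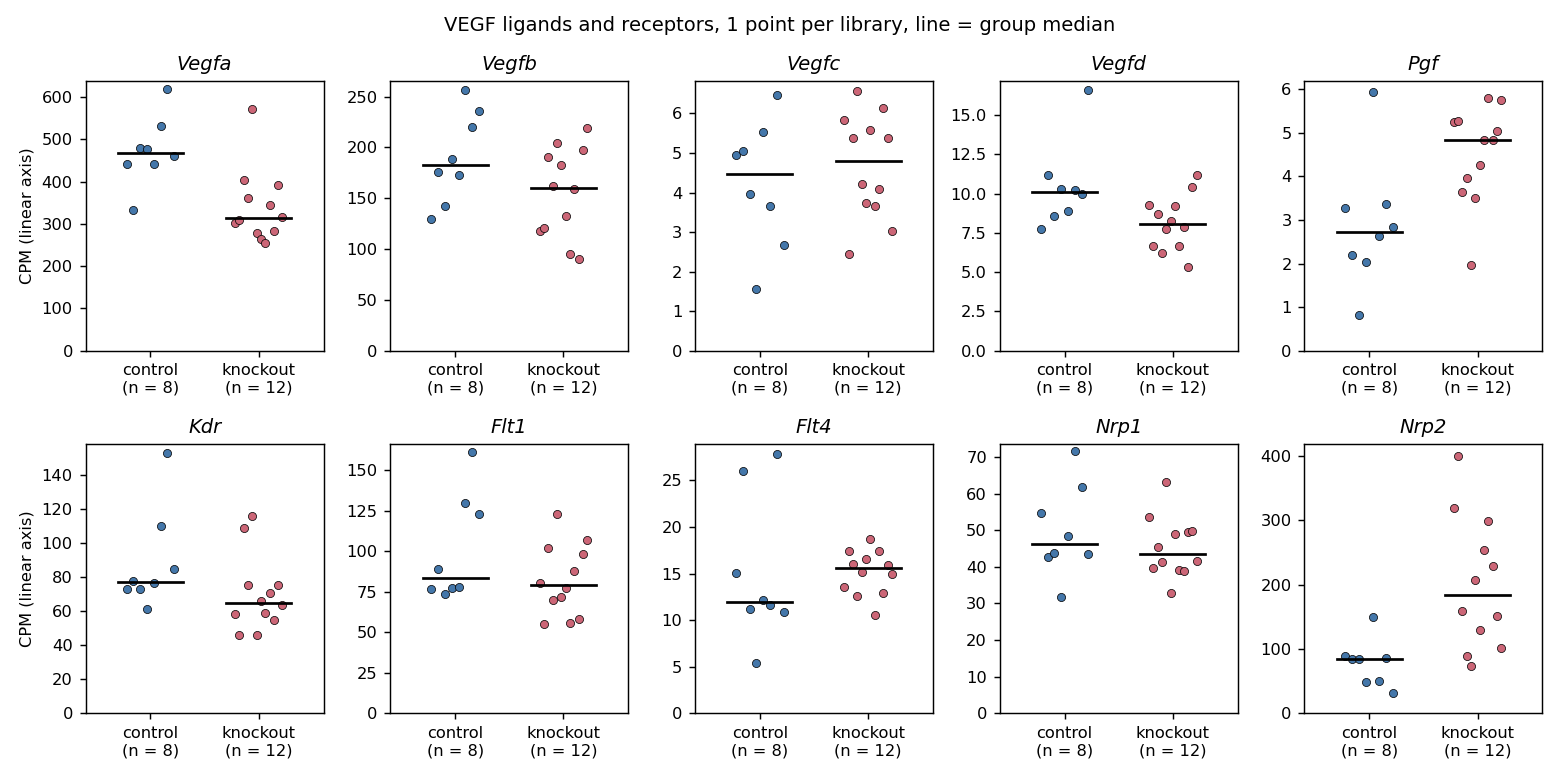
Level of each VEGF gene in CPM (y axis, linear, a scale of its own per panel) in the 8 control and 12 knockout libraries, with 1 point per library and a line at the group median. Of the 12 points labelled knockout, 7 lie below every control point for Vegfa and 8 lie above every control point for Nrp2. The groups overlap in every panel.

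The 3 receptor kinases did not pass the test. Kdr (ENSMUSG00000062960, chromosome 5, 75932827 to 75978458, minus strand), which carries the main VEGFA signal, measured 61.6, 77.0 and 153 CPM in the control libraries and 45.8, 64.6 and 116 CPM in the knockout-labelled libraries. The highest library was control replicate 7, which was also the highest for Vegfa, and 10 of 12 knockout-labelled libraries were below the control median. The log2 fold change of Kdr was −0.34 (SE 0.18, interval −0.70 to 0.02, edgeR adjusted p = 0.179), and without control replicate 7 it was −0.19 (adjusted p = 0.454). Flt1 (ENSMUSG00000029648, chromosome 5, 147561604 to 147726011, minus strand), the receptor with the soluble decoy form, measured 73.4, 83.7 and 161 CPM against 55.0, 79.1 and 123 CPM. Its log2 fold change was −0.30 (SE 0.18, interval −0.64 to 0.05, edgeR adjusted p = 0.228), or −0.17 without control replicate 7 (adjusted p = 0.503). The counts per gene do not separate its soluble and membrane forms.

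Flt4 (ENSMUSG00000020357, chromosome 11, 49609263 to 49652739, plus strand), the VEGFC and VEGFD receptor, had nearly equal means of 15.0 CPM ± 7.81 (SD, n = 8) and 15.2 CPM ± 2.35 (SD, n = 12). The spread differed more than the mean: control libraries ran from 5.43 to 27.8 CPM with a coefficient of variation of 52%, and knockout-labelled libraries from 10.6 to 18.7 CPM with 15.5%. The difference in spread was not tested. The log2 fold change was 0.01 (SE 0.21, interval −0.40 to 0.43, edgeR adjusted p = 0.97), and its sign turned to −0.0037 with upper-quartile scaling.

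Neuropilins bind VEGF and class 3 semaphorins and lack a kinase of their own. Nrp2 (ENSMUSG00000025969, chromosome 1, 62703285 to 62818695, plus strand), the co-receptor of lymphatic and venous endothelium that is also present in osteoclasts and osteoblasts, measured 31.6, 84.6 and 150 CPM in the control libraries and 72.9, 183 and 399.8 CPM in the knockout-labelled libraries. Of the latter, 11 of 12 were above the control median and 8 were above every control library, while 3 control libraries lay below every library labelled knockout. The log2 fold change was 1.36 (SE 0.32, interval 0.72 to 1.99, edgeR adjusted p = 0.0063, and 0.00016 by DESeq2). Without each library in turn it stayed at 1.22 to 1.56 and passed each time.

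Nrp1 (ENSMUSG00000025810, chromosome 8, 128358604 to 128503363, plus strand), the VEGFA co-receptor of arterial endothelium, gave no call. It measured 31.8, 46.2 and 71.6 CPM in the control libraries and 32.8, 43.4 and 63.1 CPM in the knockout-labelled libraries, with a log2 fold change of −0.14 (SE 0.13, interval −0.40 to 0.12, edgeR adjusted p = 0.47). Within a library, log2 CPM of Nrp1 minus that of Nrp2 averaged −0.55 ± 0.72 (SD, n = 8) in the control and −1.98 ± 0.91 (SD, n = 12) in the knockout-labelled libraries, values given without a test. The Nrp1 exons hold 80 bases of the microRNA gene Mir1903 on the same strand, the only annotated exon overlap of a member.

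Levels of different genes were set side by side after division by length, as CPM per kilobase. The length was that of all annotated exons of a gene over all its transcripts, so the order depends on this choice. In the control libraries the order by mean was Vegfb (119 ± 27.7), Vegfa (110 ± 19), Kdr (9.82 ± 3.25), Flt1 (7.48 ± 2.42), Nrp2 (6.62 ± 3.07), Nrp1 (5.09 ± 1.28), Vegfd (4.34 ± 1.13), Flt4 (1.82 ± 0.948), Vegfc (1.73 ± 0.652) and Pgf (0.993 ± 0.507), each CPM per kilobase ± SD over 8 libraries. The step from Vegfa to Kdr was the only one between neighbours whose ranges did not overlap. Vegfb exceeded Vegfa in 5 of 8 control libraries, Flt1 exceeded Nrp2 in 4 of 8 and Flt4 exceeded Vegfc in 4 of 8. These neighbours had no set order, whereas Kdr exceeded Flt1 in 8 of 8 per kilobase. Before division by length that order was the reverse. Log2 CPM of Flt1 minus that of Kdr ran from 0.003 to 0.53 in the control libraries.

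In the knockout-labelled libraries, Nrp2 ranked after Vegfb and Vegfa at 16.9 ± 8.62 CPM per kilobase (SD, n = 12), above Kdr at 7.74 ± 2.44 in 10 of 12 libraries and below Vegfa at 79.5 ± 20.4 in 12 of 12. Vegfb was again first at 97.2 ± 27.4 CPM per kilobase and exceeded Vegfa in 9 of 12 libraries. The low end was Vegfc at 1.91 ± 0.538, Flt4 at 1.84 ± 0.285 and Pgf at 1.55 ± 0.38 CPM per kilobase. By CPM per kilobase the ligands Vegfa and Vegfb were thus the most abundant transcripts of the family in both groups. On the same scale the mean of Vegfd was below that of every receptor except Flt4.

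The receptor kinases are mostly transcribed in endothelial cells, so receptor levels were set against 16 blood endothelial markers that include no member of the family. The neuropilins were treated the same way, although Nrp2 is also present in bone cells. The mean log2 CPM of these markers was 5.14 ± 0.30 (SD, n = 8) in the control and 5.17 ± 0.21 (SD, n = 12) in the knockout-labelled libraries, a difference of 0.03 (exact permutation test, two-sided, p = 0.781), or 0.18 with libraries scaled by their totals alone (exact permutation p = 0.138). Of the 16, Plvap, a diaphragm protein of fenestrated capillaries, rose by 0.81 (edgeR adjusted p = 0.0172) and Eng, a TGF-β co-receptor of endothelium, rose by 0.36 (edgeR adjusted p = 0.0461) on the log2 scale, and 0 fell. With 2 of 16 markers called higher, the share was near the 12.0% of all genes called higher. The summed level of the 16 markers was 527 to 1076 CPM in the control and 553 to 865.5 CPM in the knockout-labelled libraries.

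Relative to these markers, Kdr was lower and Nrp2 higher in the knockout-labelled libraries. Kdr stood 1.28 ± 0.20 (SD, n = 8) log2 units above the marker mean in the control and 0.90 ± 0.34 (SD, n = 12) in the knockout-labelled libraries, where 2 of 12 were above the control median. The difference was −0.38 (exact permutation p = 0.0113, adjusted over 5 receptors 0.0283). It failed without control replicate 3 (adjusted p = 0.0627), 6 (0.0588) or 7 (0.0687) in the same exact test. With the 14 markers that had not themselves passed, a choice made after the values were seen, it was −0.30 (exact permutation, adjusted p = 0.0721). An edgeR fit with the marker score as a covariate gave Kdr a log2 fold change of −0.36 (SE 0.13, adjusted p = 0.047).

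Nrp2 stood 1.02 ± 0.76 (SD, n = 8) log2 units above the endothelial markers in the control and 2.29 ± 0.95 (SD, n = 12) in the knockout-labelled libraries, a difference of 1.28 (exact permutation p = 0.00591, adjusted 0.0283) with 11 of 12 above the control median. That call failed without control replicate 6 (exact permutation, adjusted p = 0.0588) or 7 (0.0559). The marker score differed by only 0.03, so this value largely repeats the log2 fold change of 1.36 given above. Nrp2 did not rise with the score inside a group, with r = −0.0221 in the control and −0.773 in the knockout-labelled libraries. In bulk RNA its difference cannot be read as a level per endothelial cell, and which cells carry it was not tested. Flt1 differed by −0.31 (exact permutation p = 0.0302, adjusted 0.0503), just short of the threshold. Flt4 at 0.13 (exact permutation, adjusted p = 0.539) and Nrp1 at −0.15 (adjusted p = 0.385) did not pass.

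**Figure D3:**
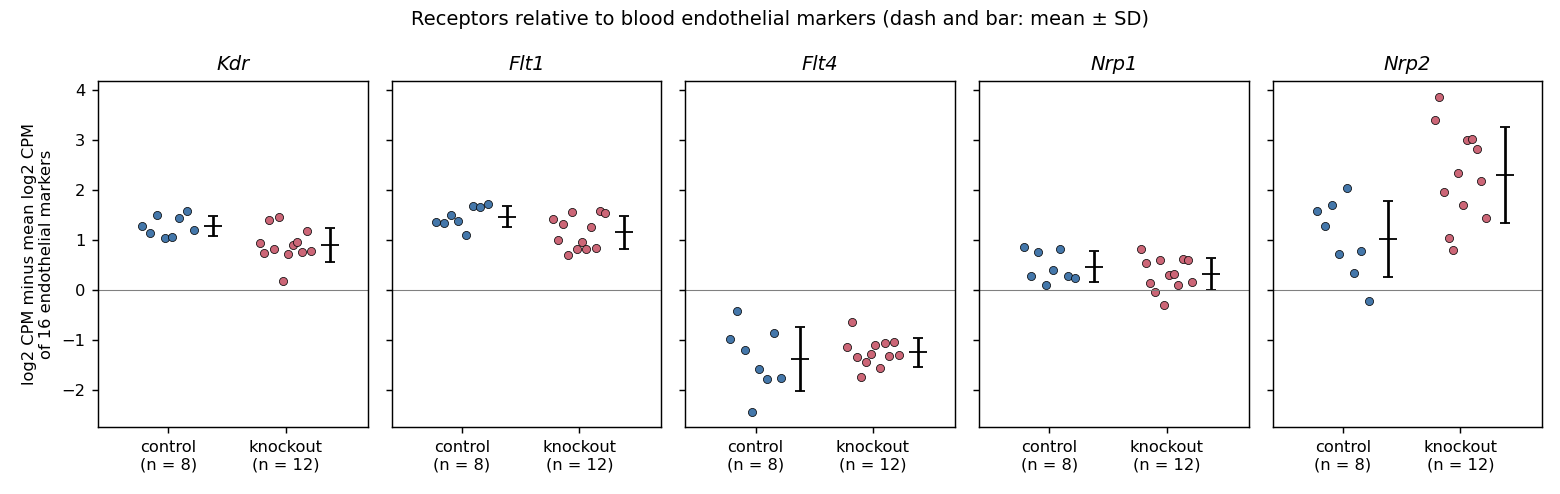
Log2 CPM of each receptor minus the mean log2 CPM of 16 blood endothelial markers (y axis), with 1 point per library for 8 control and 12 knockout libraries and the mean ± SD beside them. Kdr and Flt1 points labelled knockout reach lower than the control points, Nrp2 points reach higher, and Flt4 and Nrp1 overlap.

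Library by library, Flt1 and Kdr followed the endothelial markers in the control group. Pearson's r with the marker score over 8 control libraries was 0.89 for Flt1 (exact permutation p = 0.000595, adjusted over 20 relations 0.0119) and 0.883 for Kdr (exact permutation p = 0.00218, adjusted 0.0218). Spearman's rho was 0.952 for Flt1 (exact permutation p = 0.00114, adjusted 0.0154) and 0.905 for Kdr (exact permutation p = 0.00456, adjusted 0.0304). Without the 2 libraries farthest from the median score, r was 0.788 for Flt1 and 0.879 for Kdr.

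In the 12 knockout-labelled libraries these relations did not pass the adjustment, with r = 0.533 for Flt1 (permutation p = 0.0748, adjusted 0.187, rho 0.483 with an adjusted permutation p of 0.241) and 0.587 for Kdr (permutation p = 0.0446, adjusted 0.127, rho 0.699 with an adjusted permutation p of 0.0712). Whether r differed between the groups was not tested. Nrp2 went the opposite way there, with r = −0.773 (permutation p = 0.00374, adjusted 0.0249), a Spearman rho of −0.825 (permutation p = 0.00154, adjusted 0.0154), or r = −0.607 without the 2 farthest libraries, while in the control group its r was −0.0221 (exact permutation p = 0.96) and its rho 0.0476 (exact permutation p = 0.935). All 3 relations failed the adjustment when libraries were scaled by their totals alone.

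Set against 10 other cell type lists in each group, 200 relations in all, Nrp2 varied with the bone cell lists. Its r with the osteoclast list was 0.936 in the control group (exact permutation p = 0.000893, adjusted 0.0397, rho 0.881 with an exact permutation p of 0.00724, adjusted 0.132) and 0.88 in the knockout-labelled libraries (permutation p = 0.00025, adjusted 0.025, rho 0.874 with a permutation p of 0.00043, adjusted 0.043). Without the 2 farthest libraries r was 0.948 in the control and 0.773 in the knockout-labelled libraries. Its r with the osteoblast and osteocyte list was 0.913 in the control group (exact permutation p = 0.000992, adjusted 0.0397, rho 0.905 with an exact permutation p of 0.00456, adjusted 0.095) and 0.861 in the knockout-labelled libraries (permutation p = 9e-05, adjusted 0.018, rho 0.888 with a permutation p of 0.00036, adjusted 0.043), or 0.815 and 0.78 without the 2 farthest libraries.

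With macrophage markers Nrp2 had r = 0.928 in the control group (exact permutation p = 0.00258, adjusted 0.0645, rho 0.667 with an exact permutation p of 0.0831), which fell short, and 0.00237 in the knockout-labelled libraries (permutation p = 0.994, rho −0.0699). With skeletal muscle markers Nrp2 ran the opposite way and also fell short, at r = −0.722 in the control group (exact permutation p = 0.0454, adjusted 0.347, rho −0.857 with an exact permutation p of 0.0107) and −0.806 in the knockout-labelled libraries (permutation p = 0.00161, adjusted 0.0537, rho −0.769 with a permutation p of 0.00475). With pericyte and smooth muscle markers r was −0.75 in the knockout-labelled libraries (permutation p = 0.00491, adjusted 0.0982, rho −0.776) and 0.139 in the control group (exact permutation p = 0.746, rho 0.0238). Mast cell markers gave Nrp2 r = 0.749 in the control group (exact permutation, adjusted p = 0.296) and 0.655 in the knockout-labelled libraries (permutation, adjusted p = 0.282). Without the 2 farthest libraries these were 0.534 and 0.8. Chondrocyte markers gave r = 0.75 in the control group (exact permutation, adjusted p = 0.284) and 0.497 in the knockout-labelled libraries (permutation, adjusted p = 0.425). Without the 2 farthest libraries these were −0.447 and 0.202. The only other relation of these 200 that passed for r was Vegfd with the lymphatic list in the control group, at r = −0.877 (exact permutation p = 0.000794, adjusted 0.0397) and −0.801 without the 2 farthest libraries. Its rho of −0.929 (exact permutation p = 0.00223, adjusted 0.095) did not pass, and in the knockout-labelled libraries r was −0.494 (permutation p = 0.105, adjusted 0.425) and rho −0.552 (permutation p = 0.0678, adjusted 0.373). Vegfd is the ligand and the lymphatic list holds markers of the vessels that bear its receptor.

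**Figure D4:**
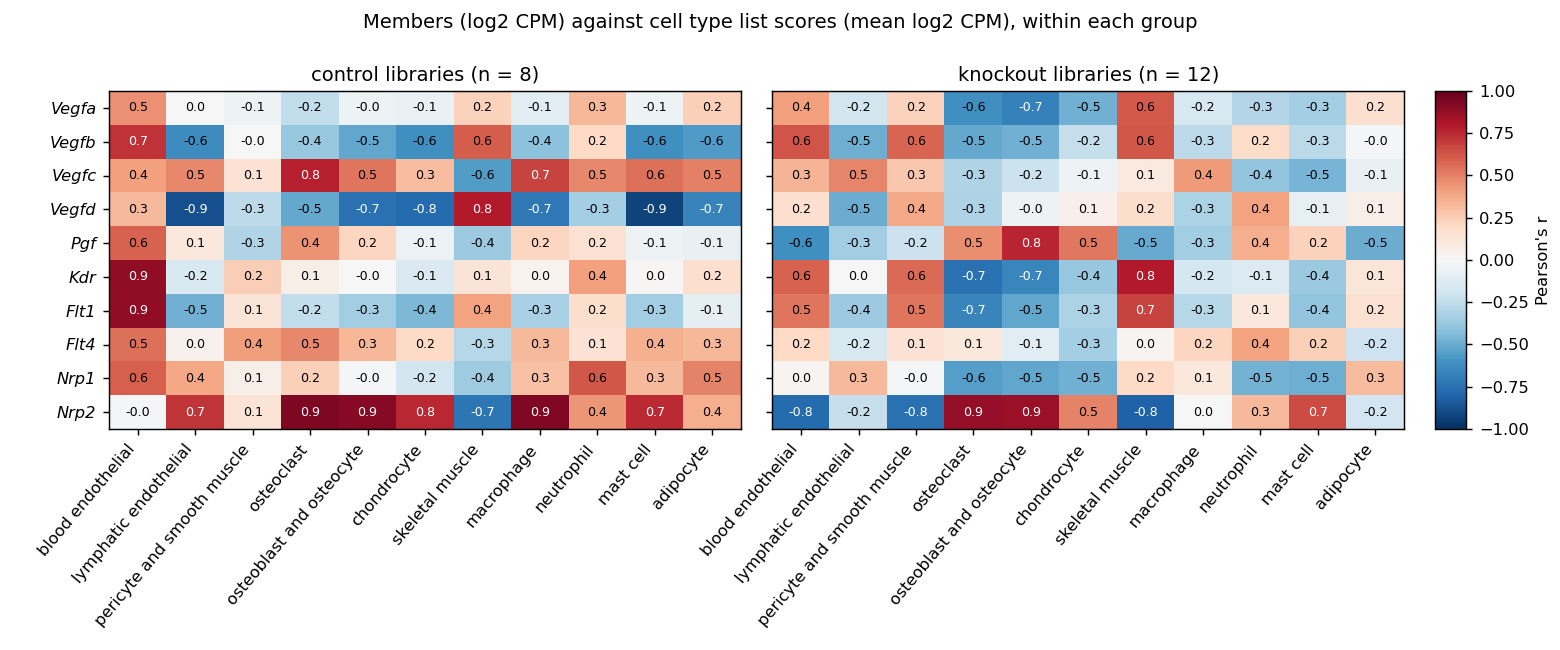
Pearson's r between the log2 CPM of each VEGF gene (y axis) and the mean log2 CPM of each of 11 cell type marker lists (x axis), in the 8 control and the 12 knockout libraries. Red is positive and blue negative, and the Nrp2 cells for osteoclast and for osteoblast and osteocyte markers are dark red in both panels, at 0.936 and 0.913 in the control and 0.88 and 0.861 in the knockout libraries.

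These lists moved with the groups. All 11 osteoclast markers rose, at a median log2 fold change of 2.68, and 5 of 10 osteoblast and osteocyte markers rose, at a median of 1.18. Macrophage markers rose in 6 of 7 cases, mast cell markers in 5 of 6 and neutrophil markers in 1 of 7, beside 12.0% higher among all genes. The neutrophil log2 fold changes were positive in 7 of 7, with a median of 2.18, and 6 had an unadjusted edgeR p under 0.05. Among muscle markers 2 of 9 fell in edgeR and 4 in DESeq2, and among pericyte and smooth muscle markers 1 of 8, Abcc9, fell. The muscle log2 fold changes were negative in 9 of 9, with a median of −0.56, and 5 had an unadjusted edgeR p under 0.05. Of lymphatic (6 tested), chondrocyte (7 tested) and adipocyte (4 tested) markers 0 passed in edgeR or DESeq2, and 0 had an unadjusted edgeR p under 0.05.

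Both calls among the VEGF genes were lost once bone or muscle lists entered the fit. With the osteoclast score as a covariate, the log2 fold change of Nrp2 was −0.22 (SE 0.23, edgeR adjusted p = 0.872) and that of Vegfa −0.12 (SE 0.18, edgeR adjusted p = 0.927). With the muscle score they were 0.71 (adjusted p = 0.09) and −0.33 (adjusted p = 0.138). The osteoclast score itself differed between the groups, at 2.26 to 5.09 in the control and 3.92 to 7.37 in the knockout-labelled libraries, so in such a fit the group and the score cannot be fully told apart. In that fit 0 of all genes passed, and 1274 were at an unadjusted edgeR p under 0.05.

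**Figure D5:**
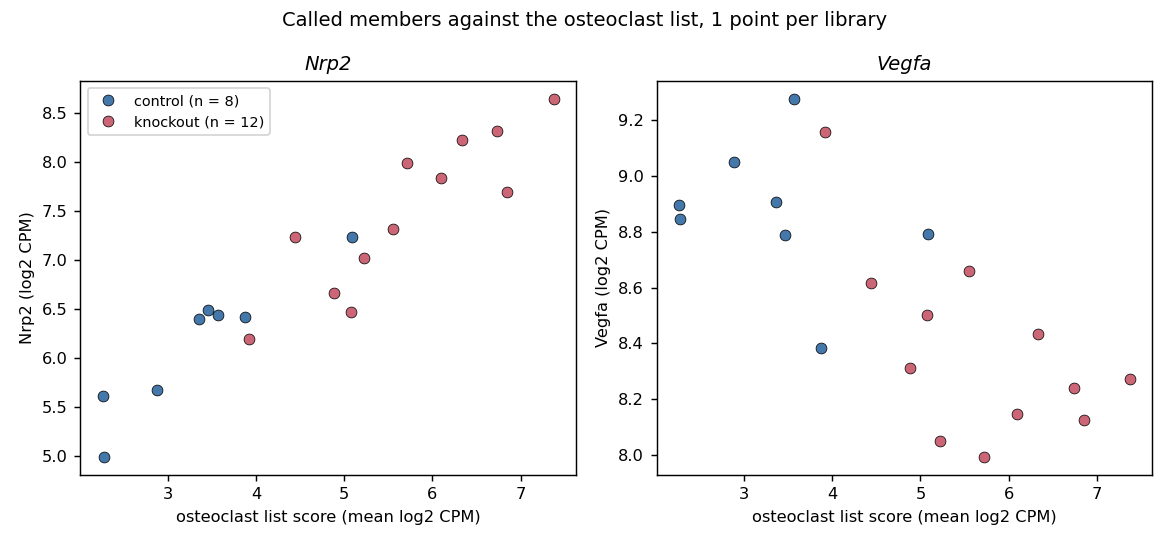
Log2 CPM of Nrp2 (left) and Vegfa (right) on the y axes against the osteoclast marker score (x axis, mean log2 CPM), with 1 point per library for 8 control and 12 knockout libraries. Nrp2 climbs with the score inside both groups (r = 0.936 and 0.88), and Vegfa has r = −0.245 in the control and −0.611 in the knockout libraries.

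In the plot against the osteoclast score, the Nrp2 points of both groups lay along one rising band. The relation of Vegfa to the same score did not pass in the control group (r = −0.245, exact permutation p = 0.567, adjusted 0.812, rho −0.357, exact permutation p = 0.389) or in the knockout-labelled libraries (r = −0.611, permutation p = 0.0326, adjusted 0.284, rho −0.531, permutation p = 0.0792). Replicate 5 of the knockout-labelled libraries was the highest of its group for Vegfa (571 CPM) and the lowest for Nrp2 (72.9 CPM). It had the lowest osteoclast score (3.92) and the highest skeletal muscle score (12.75) of that group, and their part in these values was not tested.

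Upstream of Vegfa, hypoxia-inducible factors (HIF) are the best known activators of its transcription. Of 8 tested HIF regulators 1 rose and 2 fell, beside 23.0% called in either direction among all genes. Hif1a, the oxygen-regulated subunit, rose from 36.4 to 51.1 CPM (log2 fold change 0.49, edgeR adjusted p = 0.0301). Egln3, a prolyl hydroxylase that marks HIF for degradation and is itself a HIF target, fell from 160 to 99.4 CPM (−0.69, edgeR adjusted p = 0.0302), and Hif1an, which blocks HIF activity by hydroxylating an asparagine, fell from 175 to 124 CPM (−0.50, edgeR adjusted p = 0.0218).

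The 15 hypoxia target genes had a median log2 fold change of −0.23, against −0.02 for all genes. In edgeR 1 rose and 2 fell, a share near the 23.0% called among all genes. P4ha1, a collagen prolyl hydroxylase, rose from 73.5 to 93.8 CPM (0.35, edgeR adjusted p = 0.047). Bnip3, a mitophagy receptor, fell by 0.38 (edgeR adjusted p = 0.0423) and Hk2, a hexokinase of muscle and of glycolytic cells, fell by 0.45 (edgeR adjusted p = 0.0213) on the log2 scale. The other 12 did not pass in edgeR, and DESeq2 also called Pgk1, a glycolytic kinase named here after its value was seen, lower (adjusted p = 0.0429, against 0.056 in edgeR). Several of these glycolytic genes are abundant in muscle, so the muscle markers given above stand beside them. All 9 muscle markers had a negative log2 fold change, of which 2 passed in edgeR and 4 in DESeq2. The part of muscle in the result was not tested.

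Downstream of the receptors, 4 of 24 tested signalling genes rose and 2 fell, with a median log2 fold change of −0.04, a share near the 23.0% called among all genes. Src, a kinase that acts below KDR on vessel permeability and that osteoclasts need for resorption, rose from 13.5 to 33.0 CPM (1.29, edgeR adjusted p = 0.00419). Fyn, a related kinase, rose by 0.53 (edgeR adjusted p = 0.0298) and Shb, an adaptor that binds KDR, rose by 0.51 (edgeR adjusted p = 0.0311).

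Tip cell and Notch genes, which respond to VEGFA in sprouting vessels, gave 2 higher and 0 lower of 15 in edgeR, with a median of 0.11, so the share called higher was near the 12.0% of all genes. DESeq2 called 3 higher and 1 lower, the latter Hey2, a Notch target named here after its value was seen (DESeq2 adjusted p = 0.0342, edgeR 0.05). Kcne3, a potassium channel subunit found in tip cells, rose (log2 fold change 1.42, edgeR adjusted p = 0.033) but had a mean of only 0.317 CPM in the control and 0.835 CPM in the knockout-labelled libraries, where 3 counts correspond to 0.111 to 0.269 CPM. Pdgfb, which recruits pericytes, rose from 46.6 to 63.1 CPM (0.44, edgeR adjusted p = 0.0166). Angiopoietin and TIE genes, the parallel pathway of vessel stability, gave 0 of 6 past the threshold in edgeR or DESeq2 with a median of −0.20. In each direction 1 of them had an unadjusted edgeR p under 0.05, beside 5910 of 15984 genes in either direction.

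Class 3 semaphorins and plexins, which share the neuropilins with VEGF, had a positive log2 fold change in 12 of 12 genes. The shared sign was not tested. The median was 0.21, beside −0.02 for all genes, and only 1 gene passed, beside 12.0% called higher among all genes. That gene was Plxna2, a plexin that signals with neuropilins, at 0.49 (edgeR adjusted p = 0.048). Angiogenesis inhibitors rose in 3 of 8 tested genes, with a median of 0.51 and 0 lower in edgeR or DESeq2, beside 12.0% higher among all genes. The osteoclast and osteoblast lists rose in the same libraries, and their part in these changes was not tested. Serpinf1, which encodes pigment epithelium-derived factor and is made by bone cells, rose from 169 to 403 CPM (1.26, edgeR adjusted p = 0.00206). Thbs2, a matrix thrombospondin that blocks vessel growth, rose from 64.0 to 126 CPM (0.97, edgeR adjusted p = 0.00479), and Tnmd, a tendon membrane protein related to chondromodulin, rose from 7.87 to 12.6 CPM (0.67, edgeR adjusted p = 0.0232).

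The platelet-derived growth factor (PDGF) family, the closest relatives of VEGF by structure, rose in 5 of 6 genes with a median log2 fold change of 0.66 and 0 lower, beside 12.0% higher among all genes. Pdgfc, a ligand of mesenchymal cells, rose from 11.7 to 21.1 CPM (0.85, edgeR adjusted p = 0.00348). Its receptor Pdgfra, a marker of fibroblast-like cells, rose from 47.7 to 83.0 CPM (0.80, edgeR adjusted p = 0.0143), and Pdgfd, a ligand of PDGFRB, rose from 7.97 to 13.6 CPM (0.78, edgeR adjusted p = 0.0095). The bone and macrophage lists that rose in the same libraries are given above, and their part in these changes was not tested.

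The genes whose library-to-library pattern was most like each member were found from group-centred log2 CPM over 20 libraries among 13957 protein-coding genes, as a description without a test. For Flt1 these were Cd300lg (r = 0.931), Gpihbp1 (0.907) and Cavin2 (0.901), and for Kdr they were Slc28a2 (0.91), Jam2 (0.867) and Ets1 (0.855). Gpihbp1 is a capillary protein that carries lipoprotein lipase and Jam2 is an endothelial junction protein. For Nrp1 they were Sptbn1 (0.909), Jcad (0.841), an endothelial junction gene, and Ptprb (0.81), the endothelial phosphatase of TIE2.

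The ligands had other neighbours. Vegfb was most like the mitochondrial enzyme genes Uqcrc1 (r = 0.964), Mdh2 (0.957) and Ndufv1 (0.957). Vegfa was most like Ggnbp1 (0.871), Btnl9 (0.854) and Afg1l (0.826), and Vegfd most like Gars (0.884), Ccdc9b (0.853) and Gyg (0.83). The low ligands had lower values, with Il34 (0.85), Mrgpre (0.789) and Flvcr2 (0.73) for Pgf, and Nme7 (0.81), Med11 (0.81) and Osmr (0.809) for Vegfc.

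Nrp2 was most like Cadm1 (r = 0.96), Enpp6 (0.954) and Mmp16 (0.949), a membrane metalloproteinase, and Flt4 most like St6galnac2 (0.836), Fam221b (0.791) and Zfp28 (0.782). Between members, the same measure was 0.819 for Kdr with Flt1, 0.816 for Vegfb with Flt1, 0.772 for Vegfa with Kdr and 0.677 for Vegfa with Flt1. With Nrp2 it was −0.609 for Vegfb, −0.521 for Flt1, −0.432 for Vegfd, −0.431 for Vegfa, −0.419 for Kdr, −0.127 for Nrp1, 0.176 for Vegfc, 0.234 for Flt4 and 0.407 for Pgf. These points share library depth and tissue makeup, so they are not independent.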

How the data were processed

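RNA-seq counts of 20 TMJ libraries (8 control, 12 knockout) were analysed, grouped by their labels. Per the labels and methods, the authors aligned the reads to mm10, counted reads per gene with featureCounts and deposited raw counts in 1 table. The aligner's settings, the annotation and the strand setting are not given in the sources used here. Gene names came from GENCODE M21, which matched 54495 of 54532 gene identifiers, and promoters from RefSeq.

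The counts were tested here with edgeR 4.0.16 in R 4.3.3 (TMM scaling, filterByExpr, quasi-likelihood F-test, two-sided, Benjamini-Hochberg over the 15984 genes tested), after the pipeline had been tested on simulated data. CPM used TMM-scaled totals, and log2 CPM a prior count of 2. Intervals of log2 fold changes are normal 95% intervals from the SE. In the shallowest library 3 counts equal 0.269 CPM and in the deepest 0.111 CPM, for counting error only. Marker scores are the mean log2 CPM of a list. Group differences of single scores used all 125970 assignments of libraries to groups. Correlations used all 40320 pairings over 8 libraries or 100000 resamples over 12. Each library is taken as 1 mouse, which the labels do not state, so p-values measure the spread between these libraries.

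All 10 members were named, with up to 3 higher and 3 lower genes past the threshold from each pathway list, the 3 most similar protein-coding genes per member, and Loxl2. Marker lists were mainly summarised by counts. Some genes that this rule names are not reported here. The members and lists were chosen with earlier results of these data known. Replicate numbers shared by both groups were not treated as pairs in the main fit. The correlation of deviations ran from −0.36 to 0.168 over 8 numbers and was over 0.1 in 2. These values do not show pairing, but 8 of them are too few to exclude it. Alternatives were DESeq2 1.42.0, other scalings, filters and prior counts, a robust fit, protein-coding genes alone, marker scores as covariates, a replicate block, and leaving out each library.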

Additional observations from a re-analysis of the deposited data

Results flagged for a closer look

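Vegfd in control replicate 8, at 16.6 CPM, lay far from the other 7 control libraries, of which the highest had 11.2 CPM. Its gap to the nearest library was 0.614 of the control range, above Dixon's 95% critical value for 8 samples. This was the only such value among 10 VEGF genes in the control group, and chance gives about 1 in 20 groups. The same library had the lowest lymphatic (0.48) and chondrocyte (0.66) and the highest skeletal muscle (13.56) marker score of the control group in mean log2 CPM, and the part of these in the Vegfd value was not tested. Without it the log2 fold change was −0.22 for Vegfd (edgeR adjusted p = 0.273), −0.47 for Vegfa (0.0332) and 1.25 for Nrp2 (0.0132).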

How the results depend on the processing

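Vegfa kept its direction in all 34 alternatives and its call in 28, and Nrp2 was positive in 33 of 34 and called in 30. Genes called numbered 3673, or 2987 to 4219 with other scalings, filters, tools and the endothelial covariate, and 2551 to 4181 without each library, where 2 to 3 members were called. Scaling by totals left 1 member. The replicate block, on 16 libraries, gave 1786 genes and 0 members in edgeR. At an unadjusted edgeR p under 0.05 were 4827 genes and 2 members (Vegfa −0.49, adjusted p = 0.0886, and Nrp2 1.33, adjusted p = 0.0514). The same 16 libraries without the block, chosen after seeing the data, gave 3280 genes and 1 member. The muscle covariate gave 1012 genes (3823 unadjusted) and 0 members (2 unadjusted) in edgeR. The osteoclast covariate gave 0 genes (1274 unadjusted) and 0 members (0 unadjusted). The osteoblast and osteocyte covariate, chosen after seeing the data, gave 474 genes (3098 unadjusted) and 0 members (2 unadjusted), with Vegfa at −0.32 and Nrp2 at 0.47. With the osteoclast covariate the sign turned for Vegfb (0.14), Vegfc (−0.052), Kdr (0.095), Flt1 (0.18), Flt4 (−0.28), Nrp1 (0.022) and Nrp2 (−0.22). Flt4 also turned with upper-quartile factors (−0.0037), the muscle (−0.046) and the osteoblast and osteocyte covariate (−0.12), and ran from −0.10 to 0.20 without single libraries. The cause of these changes was not tested.

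Without single libraries, the endothelial score difference ran from −0.030 to 0.11 (0.18 with library totals alone), and the receptors relative to it from −0.43 to −0.31 for Kdr, −0.37 to −0.27 for Flt1, −0.019 to 0.27 for Flt4, −0.20 to −0.09 for Nrp1 and 1.10 to 1.42 for Nrp2. Flt1 passed in 6 of these 20 alternatives, without control replicate 5 or replicate 1, 3, 5, 11 or 12 of the knockout-labelled libraries. Kdr relative to the 14 markers that had not passed was −0.30. With library totals alone, r with the endothelial score was 0.901 for Kdr and 0.831 for Flt1 in the control and −0.432 for Nrp2 in the knockout-labelled libraries (adjusted permutation p = 0.0595, 0.0933 and 0.314), and it changed sign for Nrp2 in the control (0.512) and for Vegfd (−0.2) and Nrp1 (−0.0405) in the knockout-labelled libraries. Depth limits Pgf and Vegfc most, with as few as 14 and 26 counts in a library.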
